A study of Mus musculus with 6 samples.

Results

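The 10 genes described here form the core of the circadian clock: the activators Arntl, Clock and Npas2 and the repressors Per1, Per2, Per3, Cry1, Cry2, Nr1d1 and Nr1d2. They were chosen by name among the 54232 genes of the count table, and all 10 were found and passed the filter on low counts. RNA came from the tibialis anterior, a fast muscle of the lower leg, of C57BL6 mice at 1 month of age. Libraries WT 1, WT 2 and WT 3 are wild type, and dEx51 4, dEx51 5 and dEx51 6 come from animals that lack exon 51 of Dmd, with no further allele or treatment named. Dmd encodes dystrophin, the protein that ties the muscle fibre's cytoskeleton to the matrix around it. The labels number the libraries of each genotype as biological replicates 1 to 3, so WT 1 and dEx51 4 both carry the number 1. They do not say that each came from its own mouse, so the p-values measure the spread between these libraries. The animals lived in a light/dark cycle, but no source used here gives the hour of dissection, so no clock phase can be assigned to a library.

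The clock is a feedback loop of transcription that runs in nearly every cell, muscle fibres included. ARNTL (also called BMAL1) pairs with CLOCK, or with its relative NPAS2, and the pair activates genes that carry an E-box in their promoter, among them the Per, Cry and Nr1d genes. PER and CRY proteins then inhibit the pair, and NR1D1 and NR1D2 (REV-ERB alpha and beta) repress Arntl, Clock and Npas2 through a second element, the RORE, where ROR receptors activate. In rodent tissues Arntl transcripts are known to peak at a time of day roughly opposite to those of the Per genes, and in muscle the loop times genes of glucose and lipid use.

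The libraries held 15681945 to 21020353 reads assigned to genes. Values are counts relative to library size (CPM, the usual per-library rate of reads), rescaled with TMM (trimmed mean of M values) factors of 0.869 to 0.898 in WT and 1.038 to 1.189 in dEx51. Scaling to the library total alone would move the median log2 fold change (dEx51 over WT) of all genes up by 0.351, so fold changes are relative to the TMM scale. Dmd was at 236, 249 and 266 CPM in WT 1 to 3, against 47.7, 46.4 and 51.2 CPM in dEx51 4 to 6. Its log2 fold change was -2.37 (SE 0.0944, edgeR quasi-likelihood adjusted p = 2.77e-05), in the direction of the labels. Of 12 markers of mature fast fibres, 11 were abundant. Tnnc2 was counted at only 0 to 1.49 CPM in every library, and the reason for this low count was not tested. All 12 macrophage markers were higher in dEx51, with summed levels of 78.8 to 177 CPM in WT and 819 to 1833 CPM in dEx51. In such bulk samples fewer cells of a type and less RNA per cell cannot be told apart.

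Promoter sequences are shown for 3 repressors whose windows hold letters of the clock's response elements: Cry1, because it passed the test between genotypes, Per3, because it holds a pair of D-boxes, and Nr1d1, because it differed most between libraries of 1 genotype. Each is the 250 bases before the transcription start in RefSeq on GRCm38.p6, read 5′ to 3′ on the gene's own strand, which is the reverse strand for all 3. Capitals mark the matches. Cry1 (chr10:85185055-85185304) holds the E-box CACGTG, 60 bases before the start, and the variant E-box CACGTT, seen here from the other strand as AACGTG, 79 bases before it. Per3 (chr4:151044666-151044915) holds the D-box TTATGTAA at 205 and 158 bases before the start. Nr1d1 (chr11:98775378-98775627) holds the variant E-box as AACGTG 28 bases before the start.
Cry1: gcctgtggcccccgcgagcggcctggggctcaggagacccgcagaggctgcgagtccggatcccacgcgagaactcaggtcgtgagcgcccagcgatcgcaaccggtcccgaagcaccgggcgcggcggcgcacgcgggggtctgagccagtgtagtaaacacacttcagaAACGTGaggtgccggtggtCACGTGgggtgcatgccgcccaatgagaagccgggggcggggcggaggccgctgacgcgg
Per3: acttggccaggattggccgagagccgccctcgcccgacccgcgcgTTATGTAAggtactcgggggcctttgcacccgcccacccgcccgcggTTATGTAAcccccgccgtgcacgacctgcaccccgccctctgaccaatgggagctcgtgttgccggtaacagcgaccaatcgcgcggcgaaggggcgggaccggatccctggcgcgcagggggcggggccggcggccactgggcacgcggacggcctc
Nr1d1: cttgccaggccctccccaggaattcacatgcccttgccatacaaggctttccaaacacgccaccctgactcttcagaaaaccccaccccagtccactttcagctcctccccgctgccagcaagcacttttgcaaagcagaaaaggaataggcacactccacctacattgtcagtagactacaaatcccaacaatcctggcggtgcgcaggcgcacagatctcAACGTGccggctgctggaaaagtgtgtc

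On both strands 4 motifs were searched: the E-box CACGTG, the variant E-box CACGTT, the D-box TTATGTAA or TTACGTAA, and the RORE TAGGTCA or TGGGTCA. The E-box and its variant differ in their last letter, so no site counts as both. Of 32851 promoters of the same length, 6.02% held the E-box, 3.85% the variant, 0.931% the D-box and 5.38% the RORE. The tables held 13 of the 14 genes looked up (the 10 core genes and the output factors Dbp, Tef, Hlf and Nfil3), and Per2 had no entry. Per1 (E-box at 166 bases) and Cry2 (variant E-box at 166 bases) held 1 match each, in 1 of the annotated starts for Per1. Tef held an E-box before both of its annotated starts, and Nfil3 held an RORE. Arntl, Clock, Npas2, Nr1d2, Dbp and Hlf held none of the 4 motifs in this window, which says only that these letters are not there. These matches are descriptions of letters, not of binding.

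Levels between genes were compared per kilobase of exon. In WT the order of mean levels was Nr1d2 (55.4 ± 9.38 CPM per kilobase, SD, n = 3), Nr1d1 (24.0 ± 24.7), Per1 (14.0 ± 2.00), Cry1 (5.90 ± 0.525), Per2 (5.67 ± 2.97), Per3 (5.28 ± 0.912), Cry2 (5.13 ± 1.00), Clock (4.23 ± 0.979), Arntl (1.58 ± 1.04) and Npas2 (0.171 ± 0.146). Most neighbours in this order overlapped between libraries. The gaps without overlap were below Per1, between Clock and Arntl, and between Arntl and Npas2. In dEx51 Nr1d2 was also first (43.1 ± 8.51), and Arntl (1.16 ± 0.358) and Npas2 (0.248 ± 0.229) were again last. The middle group of Per2, Cry1, Clock, Per3 and Cry2 lay between 3.68 and 4.47 CPM per kilobase there, each overlapping the next. The most abundant core clock transcript was thus a repressor in both genotypes, and the 2 scarcest were activators.

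Among the activators, the highest library of each genotype was the same in all 3 genes. Arntl (ENSMUSG00000055116, chromosome 7, 113207465 to 113314126 on GRCm38, forward strand), the DNA-binding partner that both dimers need, was at 20.9, 7.78 and 6.95 CPM in WT 1 to 3, against 11.7, 6.52 and 7.89 CPM in dEx51 4 to 6. WT 1 was 2.81 times the mean of the other 2 WT libraries, dEx51 4 was 1.63 times the mean of its own 2, and the other 4 libraries lay close together. In such ratios, here and below, the mean is taken over log2 CPM with a prior count of 2 and turned back to the linear scale. Clock (chromosome 5, 76209868 to 76304792, reverse strand), ARNTL's usual partner, was at 73.5, 48.9 and 51.7 CPM in WT against 69.3, 51.8 and 58.2 CPM in dEx51. Its spread was narrower, with WT 1 at 1.46 times and dEx51 4 at 1.26 times the mean of the other libraries of the genotype. Npas2 (chromosome 1, 39193731 to 39363236, forward strand), which can stand in for CLOCK, was scarce, at 1.61, 0.274 and 0.573 CPM in WT against 2.44, 0.394 and 0.727 CPM in dEx51. These levels rest on 5 to 57 reads per library, and WT 1 and dEx51 4 were again the highest.

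The Per genes, which encode the partners of CRY in the repressing complex, were lowest in those same libraries. Per2 (chromosome 1, 91415982 to 91459324, reverse strand) was at 13.2, 43.6 and 42.9 CPM in WT 1 to 3, against 11.7, 29.1 and 37.7 CPM in dEx51 4 to 6. WT 1 held 0.306 and dEx51 4 held 0.355 of the mean of the other 2 libraries of the genotype, and no other library came near them. Per3 (chromosome 4, 151003652 to 151044665, reverse strand), a period protein with a lesser part in the loop, was at 40.8, 57.5 and 53.8 CPM in WT against 26.5, 46.5 and 48.1 CPM in dEx51. Per1 (chromosome 11, 69095217 to 69109960, forward strand), also known to respond quickly to glucocorticoids, was at 67.5, 90.0 and 78.4 CPM in WT against 68.8, 76.0 and 87.5 CPM in dEx51. WT 1 and dEx51 4 were its lowest libraries too, but by only 0.804 and 0.844 of the others' mean.

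The Cry genes encode the cryptochromes, the main inhibitors of the ARNTL and CLOCK pair. Cry1 (chromosome 10, 85131700 to 85185064, reverse strand) was the steadiest repressor within a genotype, at 18.0, 19.7 and 21.5 CPM in WT against 13.5, 14.2 and 16.4 CPM in dEx51. Every WT library was above every dEx51 library, and the coefficient of variation was 8.89% in WT and 10.1% in dEx51. Cry2 (chromosome 2, 92403646 to 92434043, reverse strand) was at 26.2, 38.9 and 32.3 CPM in WT against 17.6, 24.1 and 28.0 CPM in dEx51. Its genotypes overlapped, because dEx51 6 was above WT 1. Cry2 shares 295 exon bases (4.67% of its exons) with the opposite-strand D930015M05Rik, which had 3 to 5 reads in a library.

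The 2 REV-ERB genes differed from each other across libraries. Nr1d1 (chromosome 11, 98767932 to 98775333, reverse strand) was at 161, 37.7 and 22.4 CPM in WT 1 to 3, against 59.7, 21.04 and 31.6 CPM in dEx51 4 to 6. WT 1 was 5.54 times and dEx51 4 was 2.31 times the mean of the other libraries of the genotype, and the coefficient of variation in WT was 103%. Nr1d2 (chromosome 14, 18204054 to 18239127, reverse strand), the paralogue with overlapping function, was at 241, 331 and 327 CPM in WT against 195, 220 and 284 CPM in dEx51, with WT 1 and dEx51 4 lowest. Per kilobase, Nr1d2 stood at 0.850 of Nr1d1 in WT 1 and 1.86 times Nr1d1 in dEx51 4, against 4.99 to 8.32 times in the other 4 libraries. Nr1d1 shares 263 exon bases (8.55%) with Thra, the thyroid hormone receptor gene on the opposite strand. No source used here gives the strand setting of the counting, so reads in that stretch cannot be told apart. Thra itself was at 86.4, 57.9 and 51.0 CPM in WT against 53.0, 43.4 and 45.1 CPM in dEx51, also highest in WT 1 and dEx51 4.

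**Figure D1:**
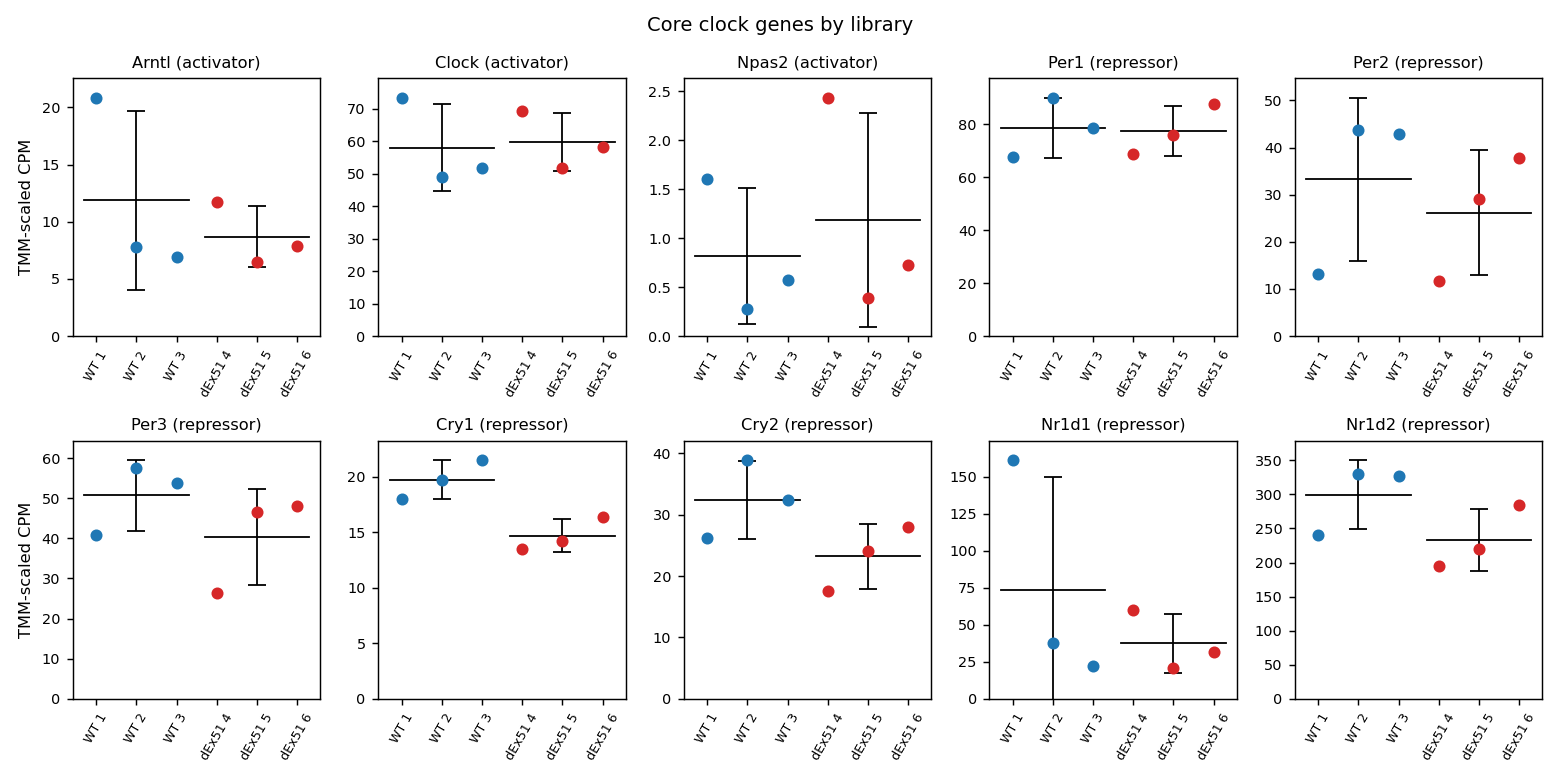
TMM-scaled CPM (vertical axis, from 0) of each core clock gene in the 6 libraries (points), with the mean (line) and SD (bar, ended at 0 for Nr1d1 in WT) of the 3 WT (blue) and 3 dEx51 (red) libraries. Cry1 is the gene whose genotypes do not overlap, and Per2 in WT 1 (13.2 CPM) and dEx51 4 (11.7 CPM) lies below all other libraries.

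All 10 core clock genes thus had WT 1 and dEx51 4 at the same end of their genotypes. Arntl, Clock, Npas2 and Nr1d1 were highest in both, and Per1, Per2, Per3, Cry1, Cry2 and Nr1d2 were lowest in both. Over all 14335 genes tested, 30.6% had these 2 libraries at the same end, 15.7% at the top and 14.9% at the bottom. Npas2, Per2 and Nr1d1 differed by at least 1 log2 unit the same way in both genotypes, which held for 80 genes, or 0.558% of those tested. The pattern was noticed in these data and has no test of its own.

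**Figure D2:**
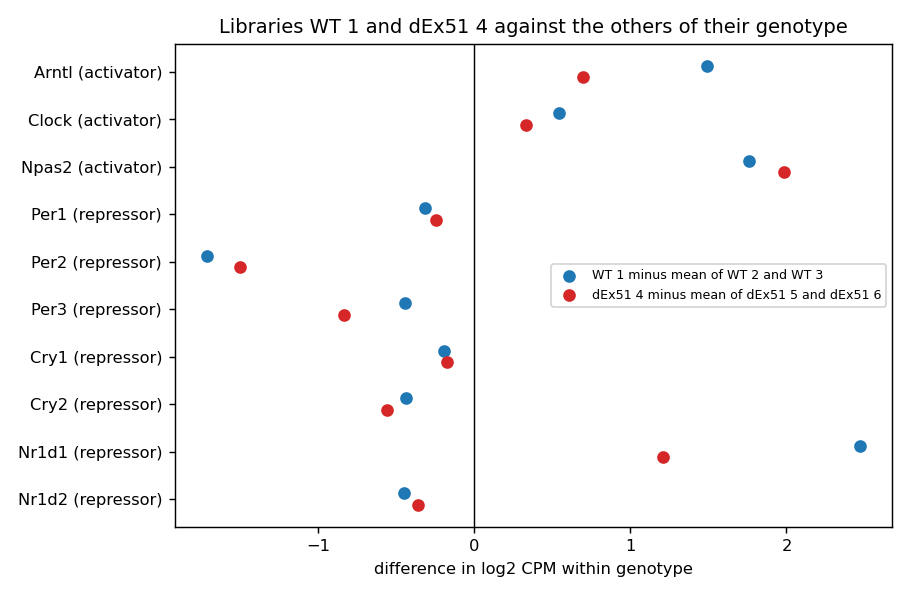
Difference in log2 CPM (horizontal axis) between WT 1 and the mean of WT 2 and WT 3 (blue), and between dEx51 4 and the mean of dEx51 5 and dEx51 6 (red), for each core clock gene. The 3 activators and Nr1d1 lie to the right of 0 in both genotypes, up to 2.47 for Nr1d1 in WT, and the other 6 repressors lie to the left, down to -1.71 for Per2 in WT.

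Other groups of genes also stood apart in WT 1 and dEx51 4. Of 17 glucocorticoid-responsive genes, 12 were lowest in both and 0 highest in both, and their summed levels were 1758, 2756 and 2996 CPM in WT 1 to 3 and 1696, 2754 and 2691 CPM in dEx51 4 to 6. Fkbp5, a glucocorticoid-induced co-chaperone named after its values were seen, was at 27.5, 161 and 174 CPM in WT against 58.3, 210 and 187 CPM in dEx51. Of 19 immediate-early genes, which respond within minutes to stimuli, 9 were highest in both and 0 lowest in both. None of the 12 macrophage markers, 2 of the 12 fast fibre markers, 5 of the 10 endothelial markers, 3 of the 10 fibro-adipogenic progenitor markers and 2 of the 9 satellite cell markers had the 2 libraries at the same end. The part of these groups in the clock genes' pattern was not tested.

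Activators and the repressors other than Nr1d1 tended to opposite ends over the 6 libraries, weakly in some pairs, such as Arntl and Cry1. Of the 21 pairs of an activator and a repressor, 18 had a Pearson r of log2 CPM below 0, and the 3 above 0 were the pairs with Nr1d1. The same number, 18, was below 0 for deviations from the genotype means. By the exact permutation test, 4 pairs had an unadjusted p of r under 0.05 and 3 had one for Spearman's rho, and 0 of 21 had an adjusted p under 0.05 by either. The libraries fall into separate clusters in the activators, WT 1 and dEx51 4 against the other 4, so no pooled r of a pair is given. Without those 2 libraries 9 of the 21 pairs changed sign, 13 had an r below 0 and only 4 libraries were left, so the relation rests on WT 1 and dEx51 4 and cannot be tested within a cluster.

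The levels of Arntl and Per2 relative to each other differed widely between libraries. Per kilobase, Arntl stood at 1.23 times Per2 in WT 1 and 0.781 in dEx51 4, against 0.139 in WT 2, 0.126 in WT 3, 0.174 in dEx51 5 and 0.163 in dEx51 6. Arntl was thus nearly level with Per2 in 2 libraries and far below it in the other 4. Clock stood at 1.26 times Per3 in WT 1 and 1.83 times in dEx51 4, and at 0.595 to 0.846 of Per3 elsewhere. Arntl and Nr1d1 were high together, and Nr1d1 varied more, so Arntl stood at 0.0529 of Nr1d1 in WT 1 and at 0.127 in WT 3. Per2 stood at 0.0429 of Nr1d1 in WT 1 and 0.103 in dEx51 4, against 0.608 to 1.01 in the other 4 libraries.

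**Figure D3:**
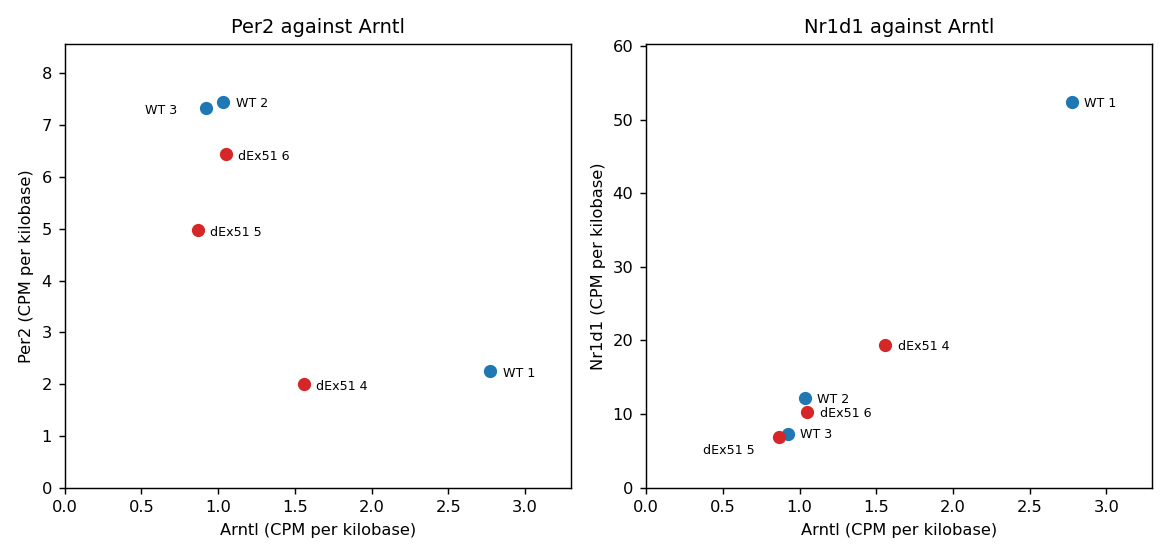
Per2 (left) and Nr1d1 (right) against Arntl, all in TMM-scaled CPM per kilobase of exon, with 1 labelled point per library (WT blue, dEx51 red). WT 1 and dEx51 4 lie at high Arntl and low Per2 on the left and at high Arntl and high Nr1d1 on the right, away from the 4 other libraries.

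Between the genotypes, 1 of the 10 core clock genes passed the test: Cry1 fell in dEx51. No member rose. Its mean was 14.7 ± 1.48 CPM in dEx51 and 19.7 ± 1.75 CPM in WT (SD, n = 3 each), or 0.746 of WT. On the log2 scale the difference was -0.42 (SE 0.117, 95% interval -0.69 to -0.15), with an adjusted p of 0.0299 by edgeR over 14335 genes. Over all genes 28.0% were called, 16.1% higher and 11.9% lower, so 1 of 10 is not above the background share in this fit. Likewise 1 member, Cry1, had genotypes that did not overlap, against 45.5% of all genes (23.8% with dEx51 higher, 21.7% with dEx51 lower).

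The Cry1 call depends on single libraries and on scaling. Its adjusted p (edgeR) was 0.0891 without WT 2, 0.0849 without WT 3, 0.0968 without dEx51 4, 0.104 without dEx51 5 and 0.0790 without WT 1 and dEx51 4 together, with log2 fold changes from -0.43 to -0.37. Scaled to the library total its log2 fold change was -0.077 (adjusted p = 0.611), and it was called in 9 of 17 alternatives.

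No other repressor passed the test in the fit without a block. With the replicate number as a block, Cry2 (edgeR adjusted p = 0.0179), Per3 (0.0406) and Nr1d2 (0.0476) were also called lower. That fit called 1960 of all 14335 genes lower. Without a block, the 7 repressors had a median log2 fold change of -0.36, against -0.013 over all genes. Among cell type markers, the fast fibre and endothelial lists also had medians below 0. Those of macrophages (3.24), fibro-adipogenic progenitors (0.69) and satellite cells (0.64) had medians above 0. The 12 fast fibre markers had a median of -0.38, with the barely counted Tnnc2 (log2 fold change 0.61, 0 to 1.49 CPM) among them. Of the 12, 7 did not overlap and were lower in dEx51. At an unadjusted p under 0.05 by edgeR 5 were lower, and 0 were called. The 10 endothelial markers had -0.48, with 7 called lower. Over all 14335 genes, 21.7% did not overlap and were lower, and 11.9% were called lower. At an unadjusted p under 0.05 by edgeR, 2767 were lower. Summed levels were 147700 to 150300 CPM in WT and 95610 to 136800 CPM in dEx51 for fibres, and 798 to 894 and 531 to 606 CPM for endothelium. The part of these cells in the repressors' values was not tested. Cry2 was at 23.2 ± 5.28 CPM in dEx51 and 32.4 ± 6.34 CPM in WT, with a log2 fold change of -0.48 (SE 0.196, interval -0.93 to -0.033, edgeR adjusted p = 0.101). Nr1d2 was at 233 ± 46.0 and 299 ± 50.7 CPM, with -0.36 (SE 0.174, interval -0.76 to 0.038, adjusted p = 0.155). Per3 was at 40.4 ± 12.0 and 50.7 ± 8.76 CPM, with -0.33 (interval -0.86 to 0.20, adjusted p = 0.314). For Per2 the value was -0.35, with an interval of -1.50 to 0.81 that leaves room for a change in either direction (adjusted p = 0.644). It was 0.0096 without dEx51 4. Per1 was at 77.4 ± 9.43 and 78.6 ± 11.3 CPM, with -0.024 (interval -0.33 to 0.28, adjusted p = 0.910), which turned to 0.079 without WT 2 and 0.055 without dEx51 4. All 7 estimates were below 0 on the TMM scale, but scaled to the library total Per1 (0.32) and Per3 (0.015) were above 0.

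The estimate for Nr1d1 rested on WT 1. The gene was at 37.5 ± 20.0 CPM in dEx51 and 73.8 ± 76.1 CPM in WT, with a log2 fold change of -0.98 (interval -2.57 to 0.61, edgeR adjusted p = 0.322). Without WT 1 the estimate turned to 0.31 (adjusted p = 0.630), and without WT 1 and dEx51 4 it was -0.20 (adjusted p = 0.667).

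Of the 3 activators, 0 passed the test by edgeR, DESeq2 or limma-voom, and 0 had an unadjusted p under 0.05. Arntl had a log2 fold change of -0.45 (SE 0.420, interval -1.42 to 0.51, edgeR adjusted p = 0.457), which was 0.23 without WT 1 and -0.037 without WT 1 and dEx51 4. Clock was at 59.7 ± 8.86 CPM in dEx51 and 58.0 ± 13.4 CPM in WT, with 0.041 (interval -0.36 to 0.44, adjusted p = 0.882). The Clock estimate was -0.076 without WT 2, -0.043 without WT 3 and -0.080 without dEx51 4. For Npas2 the value was 0.53 with an interval of -1.24 to 2.31 (adjusted p = 0.642), and it was -0.58 without dEx51 4.

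Leaving out WT 1 and dEx51 4 together was an alternative chosen after seeing the data. It narrowed the intervals of most members and gave 0 called core clock genes, against 14.9% of the 14282 genes tested then. These 2 libraries lay at the same end in all 10 core clock genes, so narrower intervals partly follow from the choice itself. Npas2 no longer passed the filter on low counts. Per2 had a log2 fold change of -0.38 (interval -0.72 to -0.030, edgeR adjusted p = 0.126) and Cry2 -0.45 (interval -0.79 to -0.11, adjusted p = 0.0770). In the authors' deposited table, which covers all 6 libraries, Cry2 had a log2 fold change of -0.52 with an adjusted p of 0.0122, Nr1d2 -0.40 with 0.0367 and Cry1 -0.46 with 0.0821. The edgeR quasi-likelihood fit over all 6 libraries and the authors' deposited table, which holds a likelihood-ratio score, thus place different repressors under an adjusted p of 0.05. By edgeR's likelihood-ratio test, also chosen after seeing the data, the adjusted p was 0.0175 for Cry1, 0.0724 for Cry2 and 0.146 for Nr1d2. The cause of the difference from the authors' table was not tested.

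**Figure D4:**
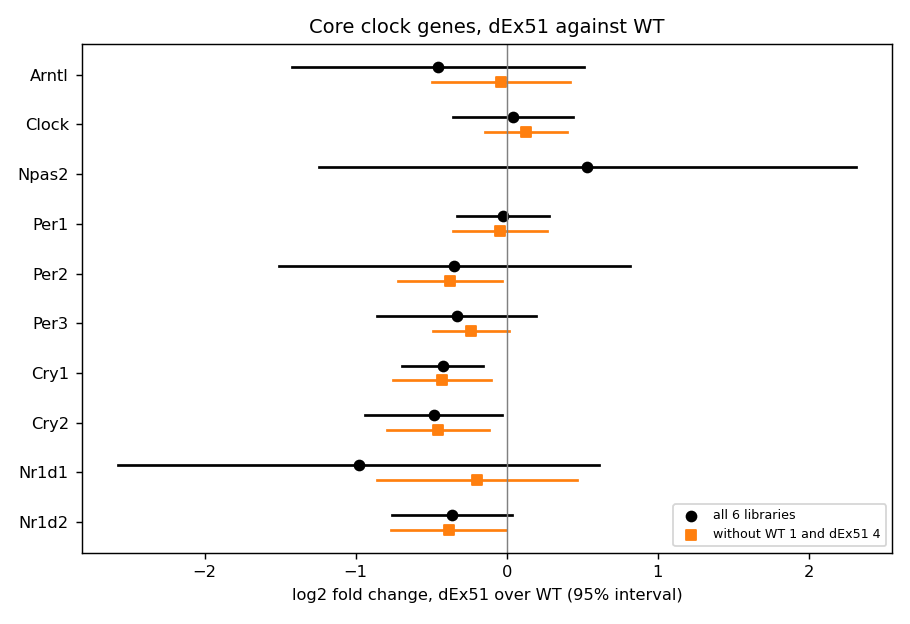
Log2 fold change of dEx51 over WT (horizontal axis) with its 95% interval for each core clock gene, over all 6 libraries (black circles) and without WT 1 and dEx51 4 (orange squares, none for Npas2). With all libraries the interval of Nr1d1 runs from -2.57 to 0.61, and that of Cry1 from -0.69 to -0.15.

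The wider clock was read from 46 genes in 5 further lists, of which 44 were tested and 11 were called, 3 higher and 8 lower, with a median log2 fold change of -0.19. Their share of calls is close to the background of 28.0%. Scaled to the library total the wider clock gave 9 higher and 1 lower, and every lower call named below ended, as the split over all genes went from 2309 higher and 1701 lower to 5394 and 334.

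Rora, a nuclear receptor that activates through the RORE, where REV-ERB represses, was at 176, 238 and 253 CPM in WT against 121, 176 and 213 CPM in dEx51. The genotypes overlapped, the log2 fold change was -0.39 (edgeR adjusted p = 0.212), and WT 1 and dEx51 4 were the lowest libraries. Arntl2, a paralogue of Arntl, was at 2.57 to 3.38 CPM in all libraries, with -0.13 (adjusted p = 0.651).

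The clock output factors of the PAR bZIP family, Dbp, Tef and Hlf, bind the D-box, where Nfil3 represses. Dbp, a direct target of the ARNTL and CLOCK pair, was at 46.6, 47.6 and 42.2 CPM in WT against 21.6, 26.1 and 35.3 CPM in dEx51. It fell, with no overlap of genotypes and a log2 fold change of -0.72 (SE 0.169, interval -1.11 to -0.33, edgeR adjusted p = 0.0165). The adjusted p of Dbp was 0.0628 without WT 2, 0.0601 without dEx51 5, 0.0665 without WT 1 and dEx51 4 and 0.0613 scaled to the library total. Hlf was at 27.1, 36.0 and 37.5 CPM in WT against 5.78, 18.9 and 22.0 CPM in dEx51. Its genotypes did not overlap either, but its log2 fold change of -1.11 missed the threshold (adjusted p = 0.0747). Hlf passed in 6 of 17 alternatives. By edgeR these were without dEx51 4 (-0.71, adjusted p = 0.0265), without dEx51 6 (-1.45, 0.0416) and without WT 1 and dEx51 4 (-0.85, 0.0108). The others were a replicate block (-1.26, 0.00947), no filter on low counts (-1.10, 0.000103) and edgeR's likelihood-ratio test (-1.11, 0.0303). Tef was at 295, 395 and 371 CPM in WT against 210, 296 and 358 CPM in dEx51 (log2 fold change -0.30, adjusted p = 0.298, and 0.044 scaled to the library total). Nfil3 was at 15.1, 29.3 and 37.2 CPM in WT against 27.2, 31.8 and 36.5 CPM in dEx51 (0.23, adjusted p = 0.580, and -0.069 without WT 1). Hlf, Tef and Nfil3 were lowest in WT 1 and dEx51 4.

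**Figure D5:**
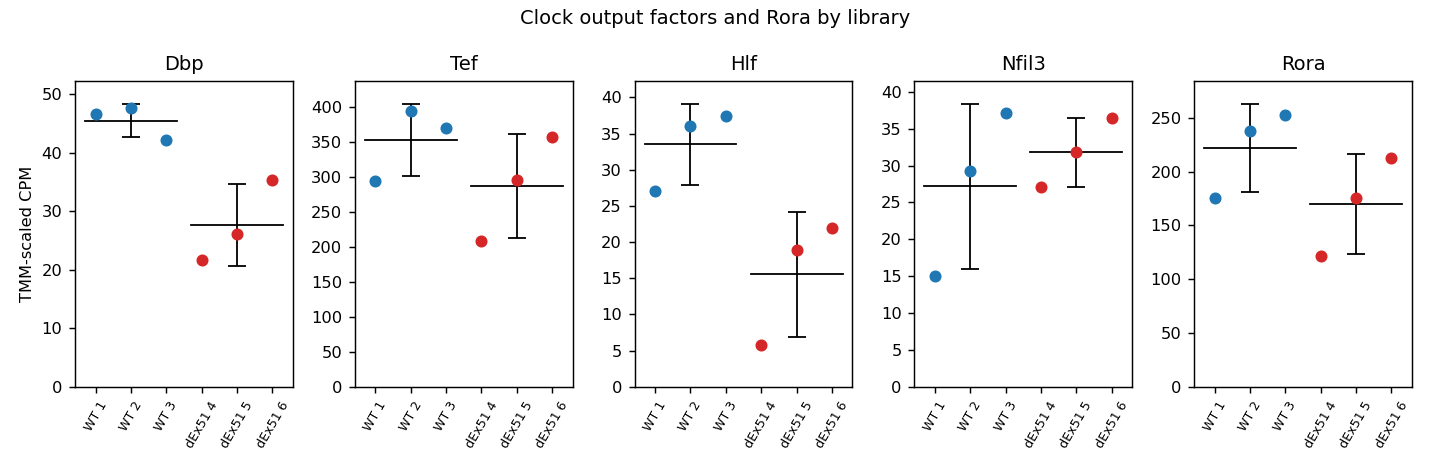
TMM-scaled CPM (vertical axis, from 0) of the output factors Dbp, Tef, Hlf and Nfil3 and the receptor Rora by library (points), with the mean (line) and SD (bar) of each genotype (WT blue, dEx51 red). Dbp is at 42.2 CPM or more in WT and at 35.3 CPM or less in dEx51, and Hlf is at 5.78 CPM in dEx51 4.

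Of 10 tested kinases and ubiquitin ligase parts that act on clock proteins, 2 fell and none rose, where 28.0% of all genes were called and 11.9% were lower. Csnk1e, a kinase of the PER proteins, was at 50.2, 63.9 and 54.6 CPM in WT against 39.5, 42.8 and 46.7 CPM in dEx51 (log2 fold change -0.39, edgeR adjusted p = 0.0377). Fbxl17, an F-box protein, had -0.41 (adjusted p = 0.0184). Neither call held in most fits with fewer libraries: for Csnk1e the adjusted p was 0.136, 0.0727, 0.115 and 0.111 without WT 2, WT 3, dEx51 4 and dEx51 5, and 0.0709 without WT 1 and dEx51 4. For Fbxl17 it was 0.0512, 0.0536, 0.0511, 0.0577 and 0.0705 without WT 1, WT 2, WT 3, dEx51 4 and dEx51 5, and 0.108 without WT 1 and dEx51 4. Of 12 modulators, Nono, which binds PER complexes, rose (0.46, adjusted p = 0.0141, with 0.0518 without dEx51 5 and 0.080 without WT 1 and dEx51 4). Ppargc1a, a coactivator of the ROR receptors, fell (-0.45, adjusted p = 0.0273). Its adjusted p was 0.105, 0.0504, 0.107 and 0.0548 without WT 2, WT 3, dEx51 5 and dEx51 6. Ncor1 (-0.32, adjusted p = 0.0641) and Hdac3 (-0.26, adjusted p = 0.0543), the corepressors through which REV-ERB acts, missed the threshold.

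Of 15 other genes listed as clock-controlled outputs, 3 fell and 2 rose, a share near the 28.0% called over all genes. Hk2, the hexokinase that traps glucose in the fibre, was at 507, 680 and 631 CPM in WT against 394, 353 and 397 CPM in dEx51 (log2 fold change -0.67, edgeR adjusted p = 0.00842). Slc2a4, the insulin-responsive glucose transporter, was at 540, 583 and 487 CPM in WT against 354, 298 and 390 CPM in dEx51 (-0.63, adjusted p = 0.010, and 0.0618 without WT 1 and dEx51 4). Lpin1, a phosphatidate phosphatase, had -0.71 (adjusted p = 0.0177, and 0.0690, 0.0570, 0.0599 and 0.0655 without WT 2, WT 3, dEx51 4 and dEx51 5). Myod1, the myogenic regulator, rose from 22.0 ± 1.33 to 42.9 ± 7.90 CPM (0.96, adjusted p = 0.00294). The other riser, Cdkn1a, a cell cycle inhibitor outside the rule for named genes, was at 11.7, 19.1 and 28.3 CPM in WT against 49.1, 58.9 and 53.2 CPM in dEx51. Myod1 and Cdkn1a are also expressed in myoblasts, and the summed level of 9 satellite cell and myoblast markers was 50.6 to 58.7 CPM in WT and 115 to 148 CPM in dEx51. The part of these cells in the 2 rises was not tested.

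The genes whose pattern over the 6 libraries was most like that of Arntl, among 9383 genes, were Relt (r = 0.997), Auts2 (0.992), Gramd4 (0.990), Kbtbd2 (0.989) and Cdc42bpb (0.987). The most unlike were Ap4m1 (-0.999), Slc10a6 (-0.995) and Nudt21 (-0.991). Relt was at 25.5, 8.55 and 7.52 CPM in WT against 14.0, 6.56 and 8.10 CPM in dEx51, close to Arntl's own values. For Nr1d1 the most like were Cdc42bpb (0.994), Cope (0.989), Relt (0.988), Jag2 (0.982) and Grip2 (0.982), and the most unlike were Nudt21 (-0.997), Vcpip1 (-0.994) and Tcp11l2 (-0.987). Relt and Cdc42bpb stood in both lists. Several of these genes varied little, as Nudt21 lay between 16.2 and 18.5 CPM, so a high r does not show a like size of difference. In both Arntl and Nr1d1, WT 1 and dEx51 4 were the 2 highest libraries, so these pooled r values carry that contrast. With 6 libraries and 9383 genes such values are descriptions, and all points share their library and depth.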

How the data were processed

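The mRNA of 3 WT and 3 dEx51 tibialis anterior libraries was sequenced from stranded libraries, per the labels' protocols. Tools named in the submitters' processing notes are featureCounts 1.6.0, edgeR 3.30.1 and FastQC 0.11.4, with the build GRCm38; no source used here gives the aligner or strand setting. The authors deposited raw counts, 1 column a library, with exon lengths. They also deposited RPKM values for a subset of genes (above 0 where the count is 0, by a step no source used here gives), and a comparison table with log2 fold changes and log2 CPM, a likelihood-ratio score, p-values and their −log10, per the file headers. Of 54232 gene IDs, 54165 were found in GENCODE M21, which gave coordinates.

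Genotypes were compared with edgeR 4.0.16 (R 4.3.3, quasi-likelihood, TMM scaling) on the counts of the 14335 genes that passed filterByExpr, with Benjamini-Hochberg adjustment over them, two-sided, called under 0.05. The SE is the absolute log2 fold change over the square root of F. The script was tested on simulated data. Correlations used log2 CPM with a prior count of 2. Within-genotype library pairs differed by a chi-square of 8.08 to 42.9 per degree of freedom. Alternatives were other scalings and filters, DESeq2 1.42.0, limma-voom (limma 3.58.1), a replicate block, each library left out, limma-trend on the authors' RPKM (log2, pseudocount 0.1 or 1), and, chosen after seeing the data, leaving out WT 1 and dEx51 4, edgeR's likelihood-ratio test and the pair counts with libraries left out. The members and lists were chosen with earlier results of these data known. Named genes are the members, Dmd, the output bZIP factors, up to 4 genes of each wider list with the lowest adjusted p (3 on the side of the list's median and 1 on the other), up to 2 of each glucocorticoid, immediate-early or marker list, and the 5 most like and 3 most unlike Arntl and Nr1d1 at a mean of at least 5 CPM, without predicted genes. Of the genes this rule names, 1 is not reported here.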

Additional observations from a re-analysis of the deposited data

How the results depend on the processing

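The number of core clock genes called was 1 (Cry1), all of it among the repressors, and it moved with most choices. Both the core and the repressors gave 0 calls scaled to the library total, on the authors' RPKM plus 0.1 or plus 1, at an adjusted p under 0.01 and without WT 1 and dEx51 4, and 3 without a filter on low counts. With each library left out in turn, they gave 0 to 3. The activators gave 0 under every alternative run. The wider clock gave 11 calls, 5 to 16 with a library left out and 4 at an adjusted p under 0.01. Over all genes 4010 were called, 2009 to 4819 with a library left out, 2126 without WT 1 and dEx51 4 and 1686 at an adjusted p under 0.01. Same-numbered libraries of the 2 genotypes had correlations of their deviations over all genes of 0.352 (number 1), -0.010 (number 2) and 0.0562 (number 3), and WT 2 correlated better with dEx51 6 (0.152) and WT 3 with dEx51 5 (0.150), so not every same-numbered pair was over 0.1 and the numbers were not taken to pair the libraries. Over the 10 members alone, the same-number correlations were 0.936, 0.958 and 0.730, and WT 2 with dEx51 6 gave 0.952. A replicate block gave 4 core and 4 repressor calls, all lower (Cry1 and, newly, Cry2 with an adjusted p of 0.0179, Per3 with 0.0406 and Nr1d2 with 0.0476). It gave 17 wider clock calls and 4468 over all 14335 genes (2508 higher and 1960 lower). The core share lies above that of all genes there, but with 10 genes it is not read as a result about the members. Estimates that changed sign scaled to the library total were Per1 (0.32), Per3 (0.015), Arntl2 (0.22), Ube3a (0.088), Hdac3 (0.087), Ncor1 (0.020) and Tef (0.044). On the deposited RPKM with a pseudocount of 0.1 they were Arntl (0.036), Per1 (0.33), Per2 (0.032), Arntl2 (0.18), Ube3a (0.088), Hdac3 (0.087), Ncor1 (0.020) and Tef (0.029), and with 1 they were Per1 (0.31), Per2 (0.018), Arntl2 (0.077), Ube3a (0.078), Hdac3 (0.081), Ncor1 (0.019) and Tef (0.029). With a library left out, the ranges that crossed 0 were -0.73 (without dEx51 4) to 0.23 (without WT 1) for Arntl, -0.080 (without dEx51 4) to 0.24 (without WT 1) for Clock, with -0.076 without WT 2 and -0.043 without WT 3, and -0.58 (without dEx51 4) to 1.53 (without WT 1) for Npas2. They were -0.13 (without WT 1) to 0.079 (without WT 2) for Per1, with 0.055 without dEx51 4, and -0.74 (without WT 1) to 0.0096 (without dEx51 4) for Per2. For Nr1d1 the range was -1.49 (without dEx51 4) to 0.31 (without WT 1), for Fbxw7 -0.035 (without WT 2) to 0.10 (without WT 1) and for Nfil3 -0.069 (without WT 1) to 0.51 (without WT 3). The deposited RPKM and the library totals share a median shift against TMM of 0.338 and 0.351, and for the other changes the cause was not tested. The number of activator and repressor pairs with r below 0 was 17 or 18 under the other scalings, the prior count of 0.5, the authors' RPKM and deviations from the genotype means. It was 16 to 18 with a library left out and 13 without WT 1 and dEx51 4. Depth limits Npas2, which had 5 to 57 reads, more than any other member.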

Other observations

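Immediate-early genes were higher in dEx51 for 7 of 19 and lower for 0, where 16.1% of all genes were higher and 11.9% lower, and their median log2 fold change was 0.79. Atf3, a stress-induced bZIP factor, was at 2.16, 1.86 and 2.15 CPM in WT against 11.9, 6.43 and 10.7 CPM in dEx51 (log2 fold change 2.23, edgeR adjusted p = 0.00128). Fosl2, a subunit of AP-1, was at 25.6, 19.9 and 19.3 CPM in WT against 40.8, 31.6 and 32.9 CPM in dEx51 (0.70, adjusted p = 0.0107, and 0.0535 without WT 2). Of 17 glucocorticoid-responsive genes, the 2 that rose were the metallothioneins Mt1 (2.21, adjusted p = 0.010) and Mt2 (3.21, adjusted p = 0.00599), which bind zinc and respond to several stresses, and 0 fell. Mt2 was at 1.16, 1.97 and 7.16 CPM in WT against 28.5, 43.1 and 19.5 CPM in dEx51, with no overlap. Macrophage markers were also higher in dEx51, with summed levels of 78.8 to 177 CPM in WT and 1127, 1833 and 819 CPM in dEx51 4 to 6. Within dEx51, Mt1 and Mt2 were highest in dEx51 5, and Atf3 and Fosl2 were lowest there. With so few libraries this order is a description only. The part of macrophages in these differences between genotypes was not tested.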
